A study of Mus musculus with 12 samples.

Results

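Cortex opposite a controlled cortical impact was compared between mice whose STING gene was floxed for deletion in Cx3cr1-expressing cells and mice that carried the same Cre allele alone. The comparison took every contralateral library of the series and every gene of the count table. That gave 6 of 12 libraries, with 3 per genotype, and 16353 genes that could be tested out of 55487. In controlled cortical impact (CCI), a common brain trauma model, the cortex of one hemisphere is laid open and struck. RNA was taken 2 hr after the impact in every mouse of both genotypes, and no sham group is part of the comparison.

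The control group, called wt here as in its sample titles, was CX3CR1cre-er/+. The other group, called cKO, was CX3CR1cre-er/+ STING fl/fl. The labels thus give both groups a tamoxifen-dependent Cre, whereas the design text names plain CX3CR1cre/+ for the floxed mice. Neither mentions tamoxifen, age or sex, or says which exons are floxed. Nor is it stated that each library is a different mouse, and the spread behind a p value may thus be technical. Cx3cr1 is active in microglia, in macrophages at the borders of the brain and in blood monocytes. The design is meant to leave the gene intact in other cells of the cortex. Which cells lost it cannot be read from bulk RNA.

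STING, encoded by Tmem173, is an adaptor in the membrane of the endoplasmic reticulum. The enzyme cGAS binds DNA in the cytosol and makes the cyclic dinucleotide cGAMP, which binds STING and sends it to the Golgi. There STING recruits the kinase TBK1, which activates the transcription factor IRF3 and type I interferon genes, and it also activates NF-kB. In the brain the pathway is known best from microglia.

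Libraries were of similar depth, with 27313520 to 28295376 counts in wt and 20779210 to 33567194 in cKO. Of the variance in log2 CPM (reads of a gene scaled by library size), the first principal component took 31.6% and set wt library 3 furthest out, and the second took 22.6% and set cKO library 3 apart. Of the first 3, only the third, which took 17.8%, separated the genotypes. Reads assigned to genes of the mitochondrial genome took 5.45% of counts in wt library 3 and 4.27% to 4.77% in the other 5. This share leaves out the many reads assigned to near-identical nuclear copies, which are taken up below. Hemoglobin transcripts ranged from 2.05 to 242 CPM in wt and from 4.69 to 81.7 CPM in cKO. All 6 libraries had at most 3 counts of Xist and 27.4 to 38.7 CPM of the Y-linked gene Ddx3y.

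Tmem173 (ENSMUSG00000024349; chromosome 18, 35733679 to 35740554 of mm10, minus strand) was lower in every cKO library than in every wt library. It had 72, 76 and 85 counts in wt libraries 1 to 3, which is 2.52, 2.66 and 3.23 CPM. In cKO libraries 1 to 3 it had 34, 46 and 16 counts, which is 1.01, 1.98 and 0.771 CPM. The groups did not overlap, but cKO library 2 lay closer to the lowest wt library than to the other cKO libraries. The cKO mean was 44.7% of the wt mean, and single cKO libraries stood at 36.0%, 70.7% and 27.5% of it.

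The fitted log2 difference of Tmem173, cKO minus wt as for all differences below, was −1.16 ± 0.31 (SE), a fold of 0.447 with a 95% interval of 0.277 to 0.722. Its unadjusted p was 0.00376 in edgeR's quasi-likelihood test, and it did not pass after Benjamini-Hochberg adjustment over all genes (adjusted p = 0.9999). With no low-count filter the same test gave an adjusted p of 0.0122, and over the other alternatives it was 0.317 to 1. The setting with no filter also called genes whose groups overlapped, such as Ide and Hba-a2. The exact permutation test of Tmem173 (two-sided) had p = 0.1, the smallest that 3 against 3 libraries allow. In injured cortex the edgeR difference was −0.84 (unadjusted p = 0.0320). Tmem173 was there at 2.34, 3.69 and 2.72 CPM in wt and 1.05, 2.44 and 1.24 CPM in cKO. On that side cKO library 2 thus lay within the wt range. The edgeR interaction of genotype and side had an unadjusted p of 0.531. The counts cover the whole gene, so reads from exons left in a deleted allele would be counted too.

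Cx3cr1 (chromosome 9, 119901616 to 120069879, minus strand), the fractalkine receptor gene that holds the Cre, was similar in both genotypes. It had 20.9, 22.1 and 24.5 CPM in wt and 18.5, 21.5 and 21.97 CPM in cKO. The groups overlapped, and the log2 difference was −0.13 ± 0.11 with a 95% interval of −0.37 to 0.12. The exact permutation test had p = 0.4. Annotated genes overlap Cx3cr1 on both strands and whether counting used strand is not given in the sources used here, so its counts may include reads of those genes. Around Tmem173, 32 of the 41 protein-coding genes within 1 Mb were tested. None had an unadjusted p under 0.05, and their median log2 difference was 0.009 (range −0.62 to 0.19).

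**Figure D1:**
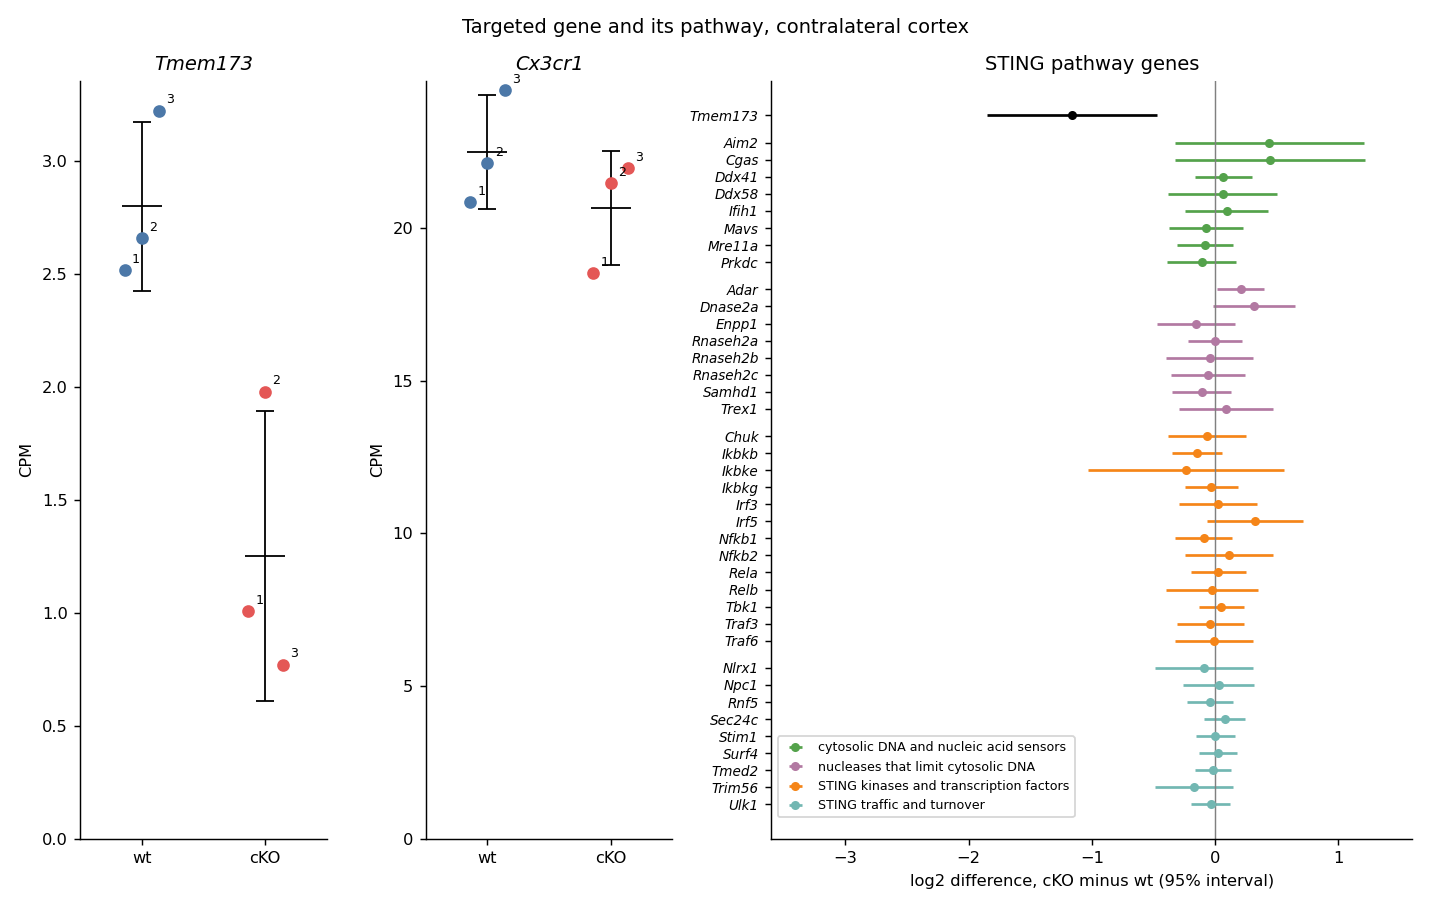
Left and middle, CPM of Tmem173 and Cx3cr1 in each contralateral library (points, numbered by library; bars are mean and SD, n = 3). Right, log2 difference and 95% interval of Tmem173 (black) and of tested STING pathway genes, coloured by role. Tmem173 is separated between genotypes, Cx3cr1 is not, and all other pathway intervals but that of Adar cross 0.

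Across the transcriptome the genotypes were close. edgeR called 0 of 16353 genes at an adjusted p under 0.05, and 372 genes (2.27%) had an unadjusted p under 0.05. Of these, 204 (1.25%) were higher and 168 (1.03%) lower in cKO. Other tools called few genes: DESeq2 called 4, limma-voom 1 and limma on log2 TPM 3. The edgeR fit with no filter on low counts called 62 (37 higher, 25 lower). Some of these overlapped between groups, such as Ide, Lcn2 and Hba-a2.

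The median log2 difference of all tested genes was −0.004, and the middle 90% of genes lay between −0.31 and 0.30. The data were precise enough to bound large differences in bulk cortex for most genes, though not differences within Cx3cr1-expressing cells alone. Of 14426 genes at 1 CPM or more on average, 14034 (97.3%) had a 95% interval inside −1 to 1 on the log2 scale. The median half-width of that interval was 0.44 at 1 to 10 CPM, 0.24 at 10 to 100 CPM and 0.18 above 100 CPM, or folds of 1.35, 1.18 and 1.13. Below 1 CPM it was 0.87, a fold of 1.83. Only 32 genes of at least 1 CPM had an estimate at or beyond 1 in either direction.

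**Figure D2:**
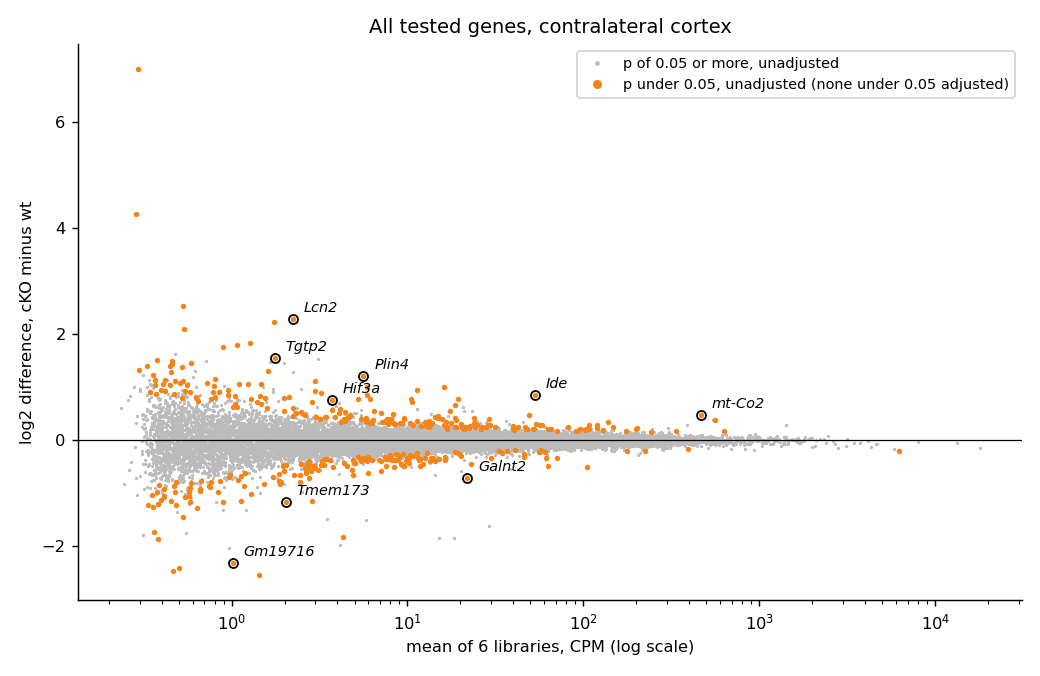
Each point is a tested gene, with its mean CPM over 6 libraries (log scale) against its log2 difference, cKO minus wt. Orange marks the 372 genes with an unadjusted p under 0.05, and named genes are circled. The spread narrows as the level rises, and the genes at either edge are mostly below 10 CPM.

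The genes that act before and beside STING differed little between genotypes. Of 8 tested sensors of cytosolic DNA and RNA, none had an unadjusted p under 0.05, and 5 lay above 0 against 48.4% of all genes (median 0.06). Cgas, the enzyme that makes cGAMP, was at 0.525, 1.05 and 0.683 CPM in wt and at 1.34, 0.818 and 0.867 CPM in cKO, so the groups overlapped (log2 0.44 ± 0.35). Aim2, a DNA sensor that builds an inflammasome, had a like estimate (0.44 ± 0.35) and was also near 1 CPM. Prkdc, the catalytic subunit of DNA-dependent protein kinase, was at 14.5 ± 2.19 CPM in wt and 13.4 ± 0.253 CPM in cKO (−0.11 ± 0.13).

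The median was −0.02 among 8 nucleases and related enzymes that keep nucleic acid out of the cytosol or destroy cGAMP. Of these, 1 had an unadjusted p under 0.05, against 2.27% of all genes. That gene was Adar, an editor of double-stranded RNA, at 178, 194 and 184 CPM in wt and 226, 189 and 227 CPM in cKO (0.21 ± 0.09, unadjusted p = 0.0368, adjusted p = 0.9999). Library 2 of cKO lay within the wt range and the other 2 above it. Dnase2a, which digests DNA in lysosomes, had an estimate of 0.31 ± 0.15. The cytosolic exonuclease Trex1 was at 6.48 ± 1.21 CPM in wt and 6.93 ± 0.968 CPM in cKO, and shares 95.8% of its 50-base words with the neighbouring gene Atrip. Samhd1, which depletes nucleotides, was at 11.2 ± 0.480 and 10.4 ± 0.631 CPM.

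Downstream of STING, 13 kinases, adaptors and transcription factors were tested. None had an unadjusted p under 0.05, 8 lay below 0 against 51.6% of all genes, and the median was −0.03. Tbk1, the kinase that STING recruits, was at 33.1, 35.2 and 35.7 CPM in wt and 35.8, 36.8 and 35.1 CPM in cKO. The 95% interval of its log2 difference, −0.14 to 0.24, bounds the change in bulk cortex in either direction. It does not bound a change in Cx3cr1-expressing cells alone. Irf3, the transcription factor that TBK1 activates, was at 13.6 ± 2.12 and 13.8 ± 1.64 CPM, and the NF-kB subunit Rela at 22.4 ± 2.03 and 22.8 ± 0.584 CPM. The largest estimate of the list was that of Irf5 (0.32 ± 0.18), and Ikbkb, a kinase that frees NF-kB, had −0.15 ± 0.09. Of 9 genes for STING traffic and turnover and 14 for autophagy and the lysosome, none had an unadjusted p under 0.05 (medians −0.02 and 0.04).

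Of 36 listed genes that interferon induces, 32 were tested and none had an unadjusted p under 0.05. Above 0 lay 19, against 48.4% of all genes, and the median was 0.06. In 1 gene all cKO libraries lay above all wt libraries, as in 3.25% of all tested genes, and in 2 all lay below, as in 3.63%. Rsad2, which makes an antiviral nucleotide, was at 0.909, 1.19 and 1.44 CPM in wt and 1.66, 1.72 and 1.40 CPM in cKO. The ubiquitin-like modifier Isg15 was at 1.03 ± 0.177 CPM in wt and 0.972 ± 0.134 CPM in cKO. For both the groups overlapped. The smallest p of the list belonged to Ifit3b (−0.38 ± 0.19, unadjusted p = 0.0750), whose transcript shares 44.5% of its 50-base words with Ifit3. Iigp1, an interferon-inducible GTPase, had an estimate of 0.53 ± 0.29 and overlapped between groups. The antiviral gene Oasl2 was the one that was higher in every cKO library, at 2.13, 2.03 and 2.16 CPM in wt and 3.17, 2.54 and 2.27 CPM in cKO (0.35 ± 0.20). Outside this list, the interferon-inducible GTPase gene Tgtp2 was also higher in every cKO library. Its edgeR estimate was 1.55 ± 0.40 (unadjusted p = 0.00296, adjusted p = 0.9999), and its shared sequence is taken up below.

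Antigen presentation genes held 2 of 14 members at an unadjusted p under 0.05, both higher in cKO, as were 1.25% of all genes. H2-K1, a class I heavy chain, was at 24.7, 25.8 and 24.3 CPM in wt and 31.8, 27.4 and 39.6 CPM in cKO (0.40 ± 0.13, unadjusted p = 0.0108). Nlrc5, the transactivator of class I genes, was at 0.455, 0.525 and 0.493 CPM in wt and 0.919, 0.732 and 1.69 CPM in cKO (1.15 ± 0.37, unadjusted p = 0.0109). Neither gene overlapped between groups, as did 3.25% of all tested genes in this direction, and cKO library 3 was the highest for both. For the class I genes that the list rule names besides these, H2-D1 was at 54.9 ± 3.81 and 57.7 ± 6.32 CPM, and B2m, the shared light chain, at 67.7 and 72.3 CPM on average. The peptide transporter Tap1 had 0.41 ± 0.20 (unadjusted p = 0.0601). The median of the list was 0.10. Without cKO library 3 it was −0.03, and 1 member had an unadjusted p under 0.05.

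Cytokine genes lay mostly below 0 but did not pass the test. Of 18 tested cytokines and NF-kB targets, 14 lay below 0 against 51.6% of all genes, and the median was −0.11. At an unadjusted p under 0.05 was 1, against 2.27% of all genes. That was Lif, a cytokine of the interleukin-6 family, at 0.105, 1.02 and 0.645 CPM in wt and 0.0593, 0.0861 and 0.386 CPM in cKO (unadjusted p = 0.0477). The groups overlapped, with wt library 1 inside the cKO range. Il1a was at 0.420, 1.47 and 1.48 CPM in wt and 0.475, 0.0431 and 1.01 CPM in cKO, and Il1b at 0.624 ± 0.149 and 0.421 ± 0.0997 CPM. The interleukin-1 receptor gene Il1r1 had an estimate of 0.50 ± 0.26.

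No chemokine among 13 tested had an unadjusted p under 0.05, and the median was −0.04. Ccl3, a ligand for receptors of monocytes and T cells, was at 0.140, 1.57 and 0.759 CPM in wt and at 0.0890, 0 and 0.723 CPM in cKO, and the groups overlapped. The homeostatic chemokine Cxcl12 was at 50.5, 51.5 and 68.3 CPM in wt and 51.7, 51.5 and 48.8 CPM in cKO. Of 11 inflammasome and lytic death genes none had an unadjusted p under 0.05 (median −0.04). Complement genes gave none of 12, although 11 lay below 0 against 51.6% of all genes (median −0.17). The C3a receptor gene C3ar1, which microglia express, was at 1.78, 1.85 and 2.54 CPM in wt and 1.54, 1.77 and 1.69 CPM in cKO (−0.31 ± 0.22).

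Microglia were clearly represented: all 24 of their markers were tested. None had an unadjusted p under 0.05, but 21 lay below 0 against 51.6% of all genes, with a median of −0.05. Their summed level was 705, 707 and 717 CPM in wt and 656, 699 and 708 CPM in cKO. Tmem119, a marker of resident microglia, was at 24.9, 27.4 and 23.9 CPM in wt and 19.6, 22.1 and 25.1 CPM in cKO (−0.19 ± 0.11). The purinergic receptor gene P2ry12 was at 23.1, 20.9 and 29.4 CPM in wt and 20.5, 23.9 and 17.7 CPM in cKO (−0.24 ± 0.15). In injured cortex the same markers had a median of −0.14 with 22 of 24 below 0 and 4 lower at an unadjusted p under 0.05, as were 3.04% of all genes on that side. In injured cortex P2ry12 differed by −0.54 (unadjusted p = 0.00678). In bulk tissue, fewer cells of a type and less RNA per cell cannot be told apart.

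Of 15 tested genes of disease-associated microglia, 1 had an unadjusted p under 0.05, against 2.27% of all genes, and the median was 0.02. Lgals3, the galectin-3 gene of activated phagocytes, was at 0.210, 0.140 and 0.190 CPM in wt and 0.445, 0.517 and 0.482 CPM in cKO (1.39 ± 0.41, unadjusted p = 0.00639). The groups did not overlap, but the level is close to the floor of 3 counts, which is 0.0890 to 0.145 CPM.

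Border macrophages, which sit in the meninges and around vessels and also use Cx3cr1, showed a larger gap. Of 9 tested markers 8 lay below 0 against 51.6% of all genes, with a median of −0.53. Lower at an unadjusted p under 0.05 were 3, as were 1.03% of all genes. Mrc1, a mannose receptor, was at 6.54, 6.05 and 5.24 CPM in wt and 2.02, 4.004 and 5.54 CPM in cKO (−0.66 ± 0.29, unadjusted p = 0.0466). F13a1, a subunit of coagulation factor XIII, was at 3.74, 3.39 and 2.96 CPM in wt and 1.10, 2.11 and 3.13 CPM in cKO (−0.71 ± 0.32, unadjusted p = 0.0466). For both genes cKO library 1 was the lowest and cKO library 3 lay in the wt range. The third was the chemokine gene Pf4 (−0.85 ± 0.38, unadjusted p = 0.0494). The marker sum was 36.3, 37.5 and 33.3 CPM in wt and 22.1, 26.5 and 35.7 CPM in cKO. Without cKO library 1 the median was −0.20, and without cKO library 3 it was −0.93. No marker had an unadjusted p under 0.05 once wt library 1, wt library 2, cKO library 1 or cKO library 2 was left out. In injured cortex the median was −0.005.

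Meningeal and fibroblast markers were lower in the same cKO libraries as the border macrophage markers. All 16 were tested, 15 lay below 0 against 51.6% of all genes, and the median was −0.29. At an unadjusted p under 0.05 were 6, all lower in cKO, as were 1.03% of all genes. The 6 were Aldh1a2, Slc22a6, Igf2, Col3a1, Slc13a4 and Slc6a13, and none of them overlapped between groups, as did 3.63% of all tested genes in this direction. Aldh1a2, a retinoic acid synthase of the meninges, was at 10.7, 12.8 and 11.7 CPM in wt and 8.48, 8.91 and 8.87 CPM in cKO (−0.42 ± 0.11, unadjusted p = 0.00406). Slc22a6, an organic anion transporter, was at 11.4, 9.45 and 11.1 CPM in wt and 6.64, 8.14 and 8.58 CPM in cKO (−0.46 ± 0.14). Igf2, a growth factor made by meningeal cells, was at 82.9, 72.9 and 79.3 CPM in wt and 51.3, 64.2 and 71.99 CPM in cKO (−0.33 ± 0.12).

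In all 3 genes cKO library 1 was the lowest of all. The summed level of the 16 markers was 321, 284 and 285 CPM in wt and 203, 250 and 292 CPM in cKO, so only 2 of the 3 cKO libraries lay below wt. Without cKO library 1 the median was −0.16 and 2 markers had an unadjusted p under 0.05. Without cKO library 3 the median was −0.42 with 9 such markers, and without wt library 1 there were 4. In injured cortex the median was −0.16, with 2 lower at an unadjusted p under 0.05, as were 3.04% of all genes on that side. How much meninges each piece of cortex carried, and its part in the values of border macrophage genes, was not tested.

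**Figure D3:**
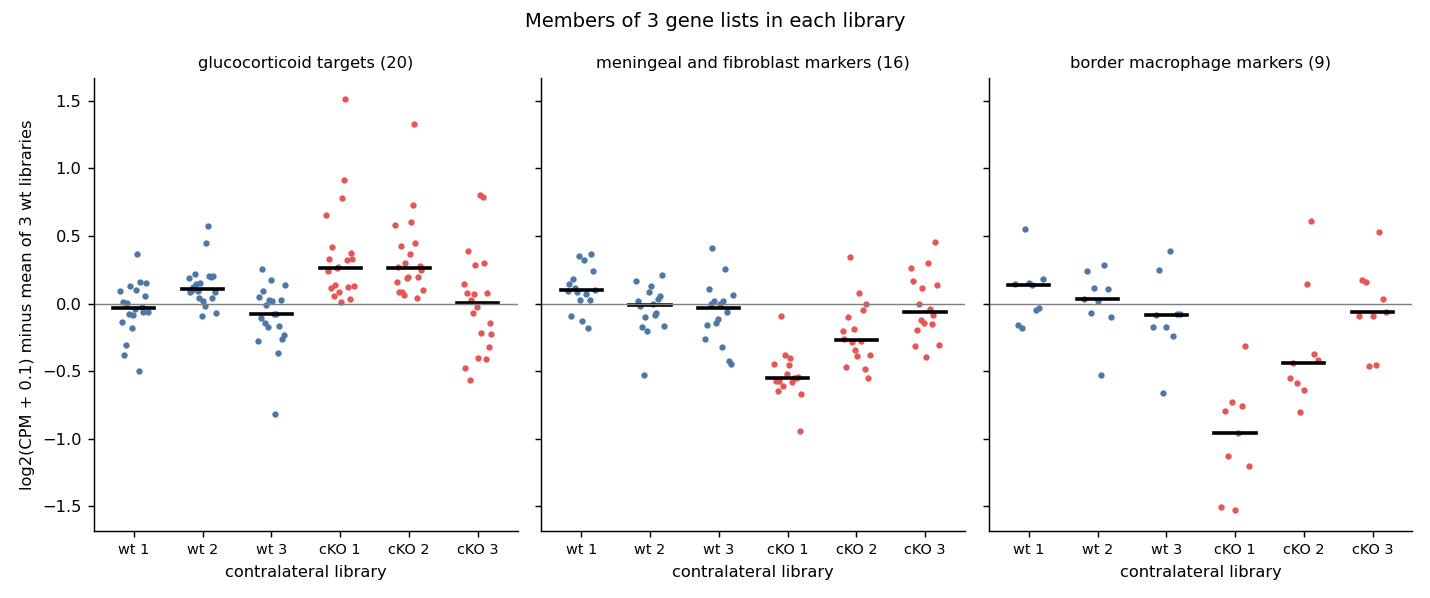
Each point is 1 gene in 1 contralateral library, as log2(CPM + 0.1) minus the mean of the 3 wt libraries; bars are medians over the list. Meningeal and border macrophage markers are lowest in cKO library 1 and near the wt level in cKO library 3, while glucocorticoid targets are highest in cKO libraries 1 and 2.

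Cells from blood left few transcripts. Of 16 neutrophil markers 3 passed the filter on low counts, 9 had at most 3 counts in each of the 6 libraries, and Ly6g and Mmp8 had 0 in all. Lymphocyte markers gave 3 of 14 tested, with Cd8a, Gzma and Nkg7 at 0 in all libraries. Among 11 monocyte markers 4 were tested, and 1 had an unadjusted p under 0.05, against 2.27% of all genes. It was the peptidase gene Ace (−0.29 ± 0.13, unadjusted p = 0.0437). Brain cells make Ace as well.

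Red cell genes were lower in cKO on average, with a median of −1.85 over 6 tested members, but varied widely within groups. Hba-a2, an alpha globin gene, was at 66.7, 17.9 and 0.835 CPM in wt and 1.51, 2.50 and 20.9 CPM in cKO (−1.85 ± 1.13, unadjusted p = 0.133). The groups overlapped, and without wt library 1 the median of the list was −0.21, while without cKO library 3 it was −3.85. Alas2, a heme synthesis enzyme of erythroid cells, was at 3.43, 1.05 and 0.114 CPM in wt and 0.178, 0.0861 and 0.964 CPM in cKO.

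Vessel wall markers were split. Of 19 endothelial and mural genes, 3 were lower and 1 higher in cKO at an unadjusted p under 0.05. Over all genes 1.03% were lower and 1.25% higher, and the median of the list was −0.10. The vascular growth factor receptor gene Kdr was at 8.75, 10.95 and 13.7 CPM in wt and 8.25, 7.32 and 8.29 CPM in cKO (−0.48 ± 0.16, unadjusted p = 0.0135). Kcnj8, a potassium channel of pericytes, was at 6.73 ± 0.992 and 5.11 ± 0.199 CPM, and Flt1, the other receptor of this family on the list, at 65.7 ± 7.78 and 55.96 ± 3.997 CPM. The gene that was higher was Slc2a1, the glucose transporter of the barrier, at 133, 137 and 133 CPM in wt and 160, 183 and 136 CPM in cKO (0.25 ± 0.10). Kdr differed by the same amount in injured cortex (−0.48, unadjusted p = 0.0298).

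The lists for astrocytes, neurons, interneurons, cortical layers, striatum, hippocampus, oligodendrocytes and their precursors held no member with an unadjusted p under 0.05. Their medians lay between −0.08 and 0.04. Reactive astrocyte genes gave 2 of 19, in opposite directions, against 2.27% of all genes. Lcn2, an iron-binding protein of reactive astrocytes and neutrophils, was at 0.979, 0.805 and 0.493 CPM in wt and 2.79, 7.62 and 0.723 CPM in cKO (2.28 ± 0.66, unadjusted p = 0.00600), and cKO library 3 lay within the wt range. Emp1, a membrane protein, was at 2.76 ± 0.203 CPM in wt and 1.79 ± 0.546 CPM in cKO (−0.65 ± 0.24).

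Endothelial activation, platelet, choroid plexus, circadian clock, ribosomal protein and nuclear respiratory chain genes held no member with an unadjusted p under 0.05. Their medians were 0.09 over 13, 0.07 over 4, −0.24 over 6, 0.02 over 17, 0.02 over 80 and −0.02 over 89 tested genes, in that order. Without wt library 3, 15 of 80 ribosomal protein and 15 of 89 respiratory chain genes were lower at an unadjusted p under 0.05. Of 17 clock genes 3 were then higher and 1 lower. Over all genes 6.22% were then at that threshold in either direction.

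**Figure D4:**
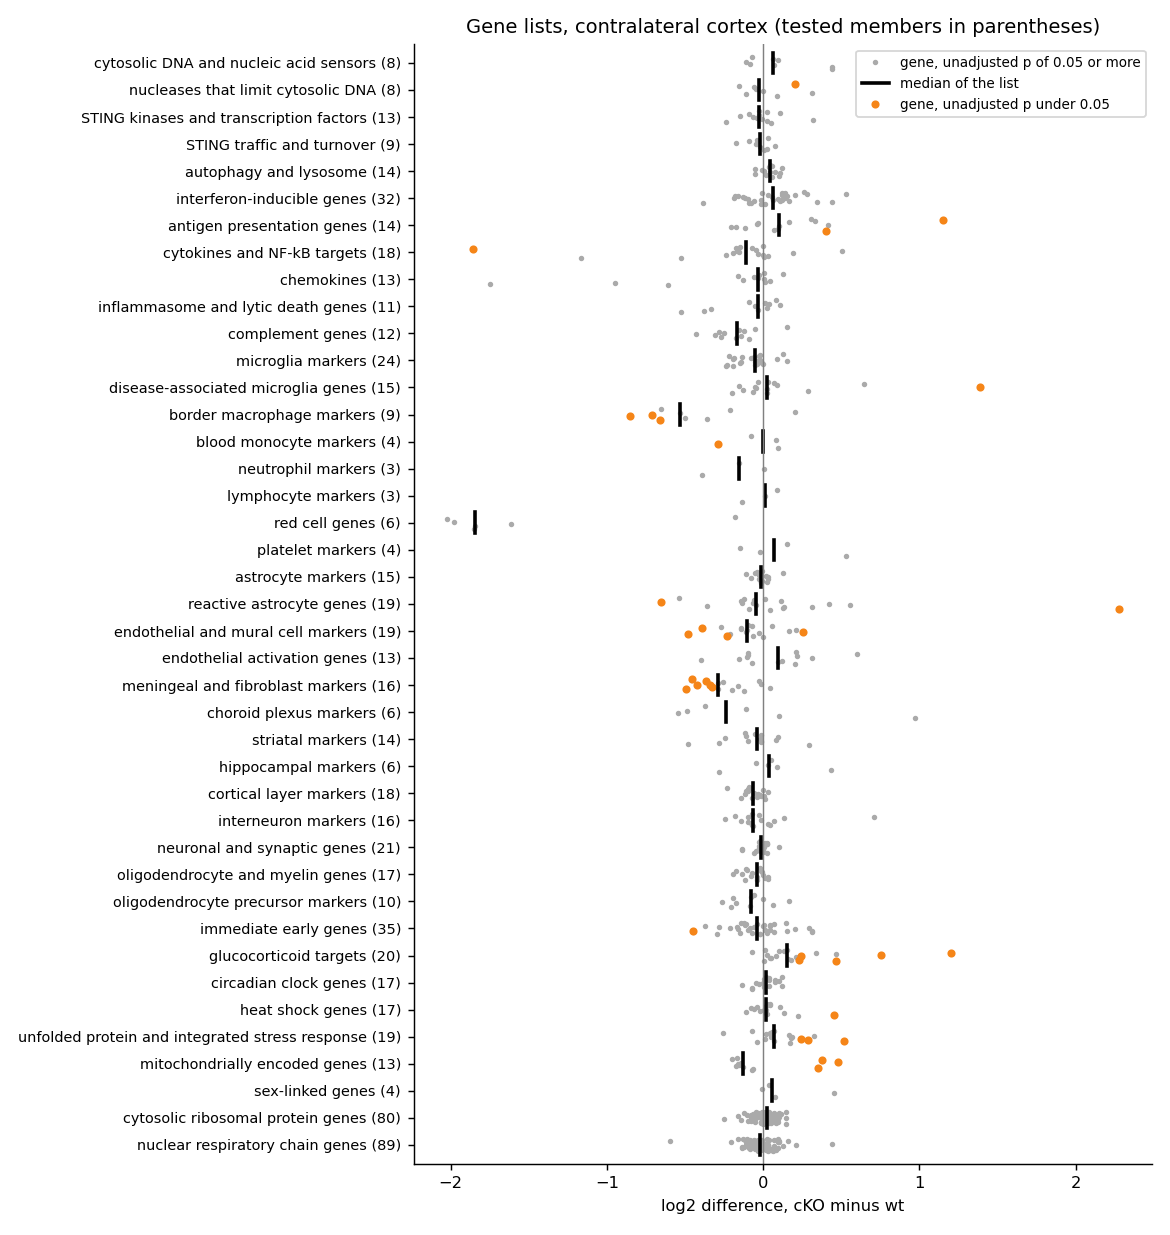
Log2 difference, cKO minus wt, of every tested gene of the lists (points; orange, unadjusted p under 0.05) with the list median (black bar) and the number tested in parentheses. Most medians sit within 0.1 of 0. Red cell, border macrophage, meningeal and choroid plexus lists have the lowest medians, and glucocorticoid targets have the highest.

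Most glucocorticoid targets had estimates above 0, and none passed after adjustment. Glucocorticoids are stress hormones whose receptor binds DNA and induces genes of lipid and glucose use. Of 20 targets, all tested, 19 lay above 0 against 48.4% of all genes, with a median of 0.15. At an unadjusted p under 0.05 were 5, all higher, as were 1.25% of all genes. That count was 2 without cKO library 1 and 3 without wt library 1. The summed level of the list was 1037, 1133 and 1095 CPM in wt and 1245, 1252 and 1031 CPM in cKO. By this sum cKO library 3 was the lowest of all.

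Hif3a, a dominant-negative relative of the hypoxia-inducible factors, was at 2.97, 2.73 and 2.62 CPM in wt and 4.83, 4.26 and 4.92 CPM in cKO. Its groups were far apart for their spread (0.75 ± 0.16, unadjusted p = 0.000665, adjusted p = 0.9999). Plin4, which coats lipid droplets, was at 2.27, 4.90 and 3.07 CPM in wt and 9.46, 8.31 and 5.69 CPM in cKO, without overlap (1.203 ± 0.27, unadjusted p = 0.00118). Fkbp5, a chaperone that dampens the glucocorticoid receptor, was at 43.6, 46.7 and 33.9 CPM in wt and 64.5, 61.3 and 45.4 CPM in cKO (0.47 ± 0.15, unadjusted p = 0.0108). Here cKO library 3 lay within the wt range.

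Tsc22d3, the leucine zipper gene named for its induction by glucocorticoids, was at 110 ± 7.98 CPM in wt and 129 ± 11.5 CPM in cKO (0.23 ± 0.09). The cell cycle inhibitor gene Cdkn1a was at 42.9 ± 4.87 and 50.8 ± 1.78 CPM (0.24 ± 0.10). Leaving out 1 library at a time gave list medians from 0.09 (without cKO library 2) to 0.25 (without cKO library 3). In injured cortex the list had a median of 0.26 with 19 of 20 above 0. There 9 were higher at an unadjusted p under 0.05, as were 2.83% of all genes on that side. All injured-side differences and p values given here come from the fit over 12 libraries. Its estimate of spread includes the contralateral libraries. On that side Hif3a differed by 0.87 (unadjusted p = 0.000134), Plin4 by 1.21 (0.000508) and Fkbp5 by 0.68 (0.000407). If libraries of the same number on the 2 sides came from the same mice, the sides are not independent samples of the genotypes.

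Of 19 genes of the unfolded protein and integrated stress responses, 16 lay above 0 against 48.4% of all genes (median 0.07). Higher at an unadjusted p under 0.05 were 3, as were 1.25% of all genes. No member was higher at that threshold without cKO library 1 or without cKO library 3, and in the latter case the median was −0.04. Without wt library 3, and with a replicate block, 1 was higher. The 3 genes were the asparagine synthetase gene Asns (97.2 ± 5.99 and 118 ± 17.95 CPM), the glutathione-degrading enzyme Chac1 (5.80 ± 1.02 and 8.33 ± 2.43 CPM) and the stress sensor Sesn2 (19.5 ± 1.08 and 23.0 ± 2.16 CPM), all higher in cKO and all targets of the transcription factor ATF4. Atf4 itself was at 144, 140 and 122 CPM in wt and 154, 136 and 166 CPM in cKO. In the opposite direction, Ppp1r15a, a phosphatase subunit that ends the response, had −0.26 ± 0.12. For Asns and Chac1, cKO library 2 lay within the wt range. Heat shock genes gave 1 of 17, Hspa1b (0.46 ± 0.16), whose transcript shares 62.3% of its 50-base words with Hspa1a. Immediate early genes, which neurons transcribe within minutes of activity, gave 1 of 35, the neuronal factor Npas4, at 26.5 ± 5.03 and 19.4 ± 3.14 CPM (−0.45 ± 0.16). Over all genes 2.27% had an unadjusted p under 0.05, the threshold for both of these lists.

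Reads that fit more than 1 gene were divided by the authors' software, and this bears on several of the genes with the smallest p. For each named gene the share of its 50-base words found in other annotated transcripts, on either strand, was counted. Of the 20 genes with the smallest p (10 per direction, at a mean of at least 1 CPM), 9 had another gene that held at least 80% of their words. These were mt-Co2, mt-Nd3, Tmem254b, Tgtp2, Gm16867 and Gm17383 among those higher in cKO, and Galnt2, Gm10401 and Gm19716 among those lower.

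The gene with the smallest p, mt-Co2, encodes subunit 2 of cytochrome c oxidase in the mitochondrial genome. It was at 397, 405 and 366 CPM in wt and 534, 547 and 545 CPM in cKO (0.48 ± 0.07, unadjusted p = 2.38e-05, adjusted p = 0.282), a tight separation. Yet 99.5% of its words also occur in Gm28661, a pseudogene on chromosome 1 (24614885 to 24615565, minus strand), which held most of the reads and went the other way. Gm28661 was at 6468, 6521 and 7124 CPM in wt and 5711, 5945 and 5701 CPM in cKO. With both summed, the difference was −0.17 ± 0.06 (unadjusted p = 0.0214), so the direction turned.

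The same held in part for other mitochondrially encoded genes. Of 13, 3 were higher in cKO at an unadjusted p under 0.05 (mt-Co2, mt-Nd3 and mt-Atp6), as were 1.25% of all genes. The other 10 did not pass and the median was −0.13. Summed with their near-identical nuclear copies, mt-Atp6 went from 0.38 to −0.03, mt-Co3 from 0.37 to −0.01 and mt-Nd3 from 0.35 to 0.12. Genes without such a copy lay below 0, among them the cytochrome b gene mt-Cytb (6206 and 5512 CPM on average, −0.17 ± 0.09). With all 5 such genes summed, none of the 13 was higher and 1 was lower at an unadjusted p under 0.05. The list median was 0.10 without wt library 3, the library with the highest mitochondrial share.

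Galnt2, an enzyme that starts O-linked glycans, was at 31.3, 23.6 and 26.6 CPM in wt and 16.5, 13.5 and 19.8 CPM in cKO (−0.71 ± 0.15, unadjusted p = 0.000792). It shares 88.0% of its words with the overlapping gene Gm20388, which was at 33.1, 38.8 and 36.7 CPM in wt and 42.6, 46.0 and 42.0 CPM in cKO. Both genes separated the groups, in opposite directions. Their sum was at 64.4, 62.4 and 63.3 CPM in wt and 59.1, 59.5 and 61.8 CPM in cKO, which differed by only −0.08 ± 0.07 (unadjusted p = 0.317), though without overlap. All 50-base words of Gm10401 occur in Sppl3, and Gm19716 shares 97.6% of its words with Atp8a2. Their differences of −1.15 and −2.31 became 0.07 and −0.07 when summed with those genes. By contrast, Tmem254b (0.406 ± 0.159), Gm16867 (0.577 ± 0.241) and Gm17383 (0.673 ± 0.235) stayed higher in cKO when summed with their copies. Their unadjusted p in edgeR was then 0.0280, 0.0371 and 0.0164. Of the copies of Tmem254b, Tmem254a lay above 0 (0.462) and Tmem254c below 0 (−0.575). Tgtp2, an interferon-inducible GTPase of T cells, kept a large estimate when summed with its copy Tgtp1 (1.35 ± 0.32, unadjusted p = 0.00179), at 1.40, 2.03 and 1.63 CPM in wt and 3.97, 2.50 and 6.51 CPM in cKO.

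The other 11 of these genes had no such copy. Besides Hif3a, Plin4, Aldh1a2 and Tmem173 they included Uaca, an apoptosis and autophagy regulator, at 13.1, 14.03 and 14.4 CPM in wt and 9.34, 10.3 and 9.88 CPM in cKO (−0.49 ± 0.11, unadjusted p = 0.000853). Dcdc2a, a microtubule-binding protein of cilia, was at 11.1 ± 0.519 and 7.93 ± 0.541 CPM (−0.49 ± 0.11). Both were well apart for their spread, yet in injured cortex they differed by only −0.05 and −0.09. Ldlrad3, a receptor of the LDL receptor family, was at 14.1 ± 1.67 and 10.3 ± 0.535 CPM (−0.46 ± 0.12), and differed by −0.36 in injured cortex. Svep1, an adhesion protein of the extracellular matrix, was at 1.73 ± 0.0181 and 0.867 ± 0.244 CPM, and Aox3, an aldehyde oxidase, at 2.42 ± 0.380 and 1.35 ± 0.238 CPM. Scand1, a zinc finger cofactor, was at 10.5, 5.39 and 7.29 CPM in wt and 11.6, 16.2 and 17.2 CPM in cKO (0.95 ± 0.23).

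Below 1 CPM, 2 genes had the same adjusted p as mt-Co2 (0.282). They were chosen for the text after their values were seen. Gm49333 had 0 counts in all 3 wt libraries and 0.534, 0.560 and 0.675 CPM in cKO, and DESeq2 and limma-voom called it. It shares 84.2% of its words with Ece2, an endothelin-converting enzyme, and summed with Ece2 it differed by −0.09 ± 0.11. Duxbl2, a double homeobox gene on chromosome 14, as is Tmem254b, was at 0, 0.0350 and 0.0380 CPM in wt and 0.504, 0.517 and 0.626 CPM in cKO. Summed with its copies Duxbl1 and Duxbl3 it differed by 0.44 ± 0.35.

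Ide, the insulin-degrading enzyme, split the cKO libraries. It was at 34.1, 38.1 and 41.4 CPM in wt and 82.7, 40.0 and 81.1 CPM in cKO, so cKO library 2 was at the wt level. Injured cortex had the same layout, with 40.6, 37.8 and 38.6 CPM in wt and 79.9, 38.2 and 75.1 CPM in cKO. Tmem254b followed it, at 15.3, 13.1 and 14.7 CPM in wt and 26.8, 16.7 and 29.9 CPM in cKO. Wdfy1, an endosomal adaptor picked after its values were seen, was the reverse, at 23.2, 21.7 and 27.2 CPM in wt and 11.1, 25.6 and 11.6 CPM in cKO. Within cKO, library 2 thus stood apart from libraries 1 and 3 in these genes, and alike on both sides of the brain. Among cKO libraries, Tmem173 too was highest in library 2 on both sides (1.98 CPM contralateral, 2.44 CPM injured). The labels give all 3 cKO libraries 1 genotype and name no litter or background strain. Leaving out cKO library 2, edgeR called Ide (1.12, adjusted p = 0.0421) and 1 other gene, Gm17081. A cause of the split was not tested.

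**Figure D5:**
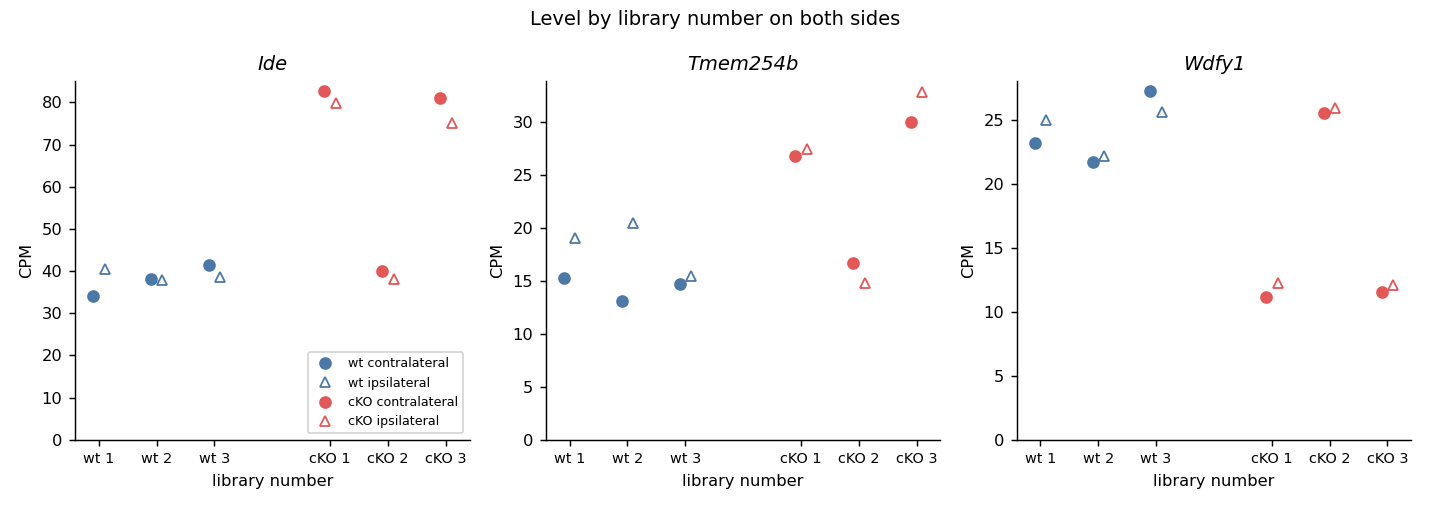
CPM of Ide, Tmem254b and Wdfy1 by library number, with contralateral libraries as filled circles and ipsilateral (injured) libraries as open triangles. In each plot cKO library 2 lies near the wt level on both sides, and cKO libraries 1 and 3 lie apart from it.

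Whether the genotype difference itself depended on the side was tested across all 12 libraries. edgeR called 0 of 16836 genes for the interaction, and 381 (2.26%) had an unadjusted p under 0.05. The injured side held the shallowest library of the 12, cKO library 3 with 7958931 counts, and without it the interaction also called 0 genes. With the libraries of the same number and genotype as a block across sides it called 0 as well (smallest adjusted p = 0.542). The injured-side contrast of the 12-library fit also gave 0 called genes, with 5.86% at an unadjusted p under 0.05. Among the 10 genes with the smallest contralateral p that were higher in cKO, 7 were also above 0 in injured cortex, 4 of them at an unadjusted p under 0.05. Among the 10 that were lower, 7 were also below 0 there and 2 reached that threshold. Over all genes tested on both sides the sign was shared by 57.2%. Of these 20 genes 9 had an interaction p under 0.05 unadjusted, but they had been chosen on the contralateral values that enter it.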

How the data were processed

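Bulk RNA-seq was made from mouse cortex with a stranded mRNA kit, per the labels' protocols. Per the submitters' processing notes, Trim Galore 0.6.4, STAR 2.7.1a, RSEM 1.2.28, DESeq2 1.36.0 and the mm10 genome were used, and the annotation and strand setting are not given in the sources used here. The authors deposited RSEM estimated counts and TPM per gene. The estimated counts were whole numbers as deposited, 20779210 to 33567194 per contralateral library, so the floor of 3 counts was 0.0890 to 0.145 CPM. The TPM deposited by the authors served only as an alternative.

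Counts of the 6 contralateral libraries were filtered (minimum count 10, minimum total 15, edgeR's filterByExpr), which removed 39134 genes, and scaled by TMM. They were tested with edgeR 4.0.16 (quasi-likelihood, R 4.3.3), with Benjamini-Hochberg adjustment over all tested genes and a threshold of 0.05. SE is the log2 difference over the square root of the F statistic, and values after ± are SE for log2 differences and SD (n = 3) for CPM. The script was tested on simulated data. Gene positions and types came from GENCODE M21, which matched 55227 IDs. DESeq2 1.42.0 and limma 3.58.1 (voom, and log2(TPM + 1)) were alternatives, as were other scalings and filters, a fit over 12 libraries, a replicate block, leaving out each library, and, chosen after seeing the data, summing genes that share at least 80% of 50-base words.

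Members and gene lists were chosen with earlier results of these data known. The text names Tmem173 and Cx3cr1, the 10 genes of smallest p per direction averaging 1 CPM or more, and from each list up to 3 genes of smallest p and 2 of highest mean. Other list members (such as Irf3, Tbk1, Isg15, Rsad2 and Atf4) and partners of shared sequence were named after their values were seen. No pair of libraries agreed within sampling noise, so each was counted once. Same-numbered wt and cKO libraries did not deviate together (r −0.01, −0.13 and −0.18 over 14496 genes), so numbers were not taken as pairs of genotypes. Across sides, each cKO library correlated best with its own number (r 0.11, 0.18 and 0.09), as did wt libraries 2 and 3 (0.20 and 0.09) but not wt library 1 (−0.004), so a block across sides was an alternative for the interaction. Some members of the lists are counted in them but are not reported here by name.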

Additional observations from a re-analysis of the deposited data

How the results depend on the processing

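The count of 0 called genes became 62 with no low-count filter, 4 with DESeq2, 1 with limma-voom, 3 with limma on log2(TPM + 1), and 0 to 2 when 1 library was left out (2 without cKO library 2). Genes at an unadjusted p under 0.05 numbered 813 with no filter and 280 to 1039 with 1 library left out (1039 without wt library 3). The cause was not tested. With the replicate number as a block, 0 genes were called and 285 had an unadjusted p under 0.05; the block changed no call, and left 1 in place of 3 genes of the unfolded protein and integrated stress response list at that unadjusted p. The interaction kept 0 calls under its alternatives.

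List medians moved by more than the spread between libraries as follows. With the strict filter, the sensors went to −0.006 (6 of 8 members left) and choroid plexus to 0.105 (3 of 6). With log2(TPM + 1), the sensors went to −0.039 (7 of 8), cytokines to 0.019 (13 of 18) and complement to −0.051 (9 of 12). Under the same setting neutrophil went to 0.073 (1 of 3), choroid plexus to 0.232 (2 of 6) and neuronal genes to 0.020 (all 21). Where members were lost, the medians are not over the same genes. With 1 library left out, sensors ranged from −0.017 to 0.087, STING kinases and transcription factors from −0.082 to 0.050, neutrophil from −0.355 to −0.055, endothelial activation from −0.126 to 0.157 and mitochondrially encoded genes from −0.200 to 0.096.

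Of 1600 pairs of a named gene and an alternative, 1561 kept direction and call, 25 gained a call and 14 changed sign. Summing near-identical genes turned mt-Co2 to −0.165, Gm10401 to 0.068, mt-Atp6 to −0.031, mt-Co3 to −0.013 and Gm49333 to −0.090. With log2(TPM + 1), Aim2 was −0.039 and Rela −0.017. With 1 library left out, Trex1 ranged from −0.055 to 0.201, Irf3 from −0.097 to 0.120, Rela from −0.047 to 0.070, H2-D1 from −0.020 to 0.124 and Isg15 from −0.210 to 0.037. Under 1 CPM the median half-width of the 95% interval was 0.868 (log2), and how much of it is due to depth was not tested.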

Other observations

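H2-Q6, a nonclassical class I gene outside the lists and chosen after its values were seen, was at 0.455, 1.26 and 1.06 CPM in wt and 1.84, 1.77 and 3.33 CPM in cKO (log2 1.30 ± 0.38, unadjusted p = 0.00629, adjusted p = 0.9999). In injured cortex H2-Q6 was at 1.76, 2.36 and 1.69 CPM in wt and 3.39, 3.36 and 3.86 CPM in cKO, so the groups did not overlap on either side. With no low-count filter its adjusted p in the edgeR test was 0.0116. That setting also called genes whose groups overlapped, such as Hba-a2 (adjusted p = 0.000199).

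Nnt, the mitochondrial transhydrogenase gene that is mutated in some C57BL/6J stocks, was also chosen after its values were seen. Another annotated entry of the same name overlaps it on the same strand. Reads may have been divided between these entries, and their sum was not taken, so the values below may not be the full level of Nnt. It was at 1.364, 6.72 and 7.32 CPM in contralateral wt libraries and 1.19, 4.004 and 0.337 CPM in cKO. In injured cortex Nnt was at 5.37, 5.37 and 5.80 CPM in wt and 3.64, 2.32 and 3.36 CPM in cKO, so wt library 1 was low on 1 side only.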
